A study of Bos taurus with 16 samples.

Results

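Costimulatory and checkpoint molecules decide whether a T cell that has met its antigen is driven on or held back, and the genes considered here are CD80, CD86, CD40, CD274, PDCD1LG2, ICOSLG, CD28 and CTLA4. They were found on the array by gene name, by the symbol in brackets in the probe description, or by the gene identifier. A probe was found for 7 of the 8 genes, among 19630 names on the array. No probe was found under the name ICOSLG. CD28 had 2 probes and each of the others 1, so that 8 probes of 21475 were followed, each printed in 2 spots per array.

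The study compared CD14+ cells from the endometrium with CD14+ cells from the blood of the same pregnant cow, to learn how the macrophages of the pregnant uterus differ from blood monocytes. Uteri and blood were taken at an abattoir from 4 cows on days 164, 239, 242 and 248 of pregnancy (animals 1 to 4), and the cells were sorted by flow cytometry from enzymatically dispersed stromal endometrial cells or from peripheral blood mononuclear cells. RNA was amplified, labeled with Cy3 or Cy5 and hybridized so that each of 8 arrays held both tissues of 1 animal. Every animal had 2 technical replicates, so the 16 samples were 8 of blood and 8 of endometrium, and the animal was the replicate (n = 4). There was no group of cows that were not pregnant, the day of pregnancy differs between all animals, and the endometrial cells came from a dispersed tissue that also holds epithelial, stromal and fetal cells.

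CD80 and CD86 are the B7 ligands that antigen-presenting cells show to T cells. CD28 on the T cell binds them and promotes activation, and CTLA4, which binds the same ligands more tightly, restrains it. CD40, a receptor of the TNF receptor family on B cells, dendritic cells and macrophages, is engaged by CD40LG on activated T cells and is known to raise CD80 and CD86. CD274 (PD-L1) and PDCD1LG2 (PD-L2) are ligands of the inhibitory receptor PDCD1, and ICOSLG is the ligand of ICOS. At the boundary between mother and conceptus these molecules are studied because the conceptus carries paternal antigens. In the RefSeq gene table of the bovine assembly ARS-UCD2.0, CD28, CTLA4 and ICOS lie next to each other in that order, and CD274 lies next to PDCD1LG2.

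Every value given here is the brightness of a 60-base probe, and the probes of the 5 genes with the widest spread between samples are printed so that the transcripts measured can be identified. The CD80 probe carries the older name LOC407131 in the files, and that of CD40 the older name TNFRSF5. The probes are given 5′ to 3′ as the files give them.

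CD80 probe A_73_110255: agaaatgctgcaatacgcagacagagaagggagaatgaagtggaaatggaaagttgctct
CD86 probe A_73_118621: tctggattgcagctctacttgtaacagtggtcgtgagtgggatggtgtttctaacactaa
CD40 probe A_73_110113: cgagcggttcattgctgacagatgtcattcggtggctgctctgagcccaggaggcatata
CD28 probe A_73_116886: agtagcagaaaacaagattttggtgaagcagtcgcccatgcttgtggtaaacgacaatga
CD28 probe A_73_110532: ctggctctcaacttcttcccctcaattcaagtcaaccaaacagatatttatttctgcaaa
CTLA4 probe A_73_104324: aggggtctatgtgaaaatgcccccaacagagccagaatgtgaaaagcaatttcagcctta

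Levels are log2 intensities after correction for background and normalization, on a scale whose dimmest probes lie near 6, and a ratio is the log2 level in endometrium minus that in blood of the same animal. A tissue had 8 channels, and a probe that the scanner software marked as well above background in 4 or more of them, in either tissue, was tested, which left 16653 of 21475. To be called, a probe needed a fold change over 2 and an adjusted p no greater than 0.05. The level of a probe depends on its sequence, so no probe's level is set against that of another. Channels of blood had median intensities of 48 to 155.5, and channels of endometrium 52.5 to 402.75.

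The label of the sorted cells was checked first, because the members are expressed by several kinds of immune cell. The level of CD14, the antigen of the sort, was 14.24 in the blood of animal 1 and 6.30, 7.63 and 6.69 in the blood of animals 2, 3 and 4. In endometrium it was 12.17 in animal 1 and 6.41, 8.14 and 6.82 in the others. All 8 channels of both tissues had the probe well above background, but the 6 samples of animals 2 to 4 were far below both samples of animal 1. CSF1R, the receptor for macrophage growth factor, had the same order in blood, with 13.003 in animal 1 and 6.64, 8.13 and 6.95 in the others. In endometrium CSF1R was at 14.40 in animal 1 and at 9.15, 11.27 and 10.95 in animals 2 to 4, above the blood of the same animal each time. Over all 8 markers of monocytes and macrophages the summed level in blood was 82850 in animal 1 and 1909 to 4134 in animals 2 to 4, and in endometrium 67160 against 2193 to 11740.

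T cell markers ran the other way. Of 12 T cell markers 9 had a probe, and their summed level was 1294 in blood and 3770 in endometrium of animal 1, against 23900 to 44500 and 31410 to 58670 in the other animals. CD3E, a chain of the T cell receptor complex, was at 7.19 in blood of animal 1 and at 12.32, 11.26 and 12.50 in blood of animals 2 to 4. B cell markers (9 of 10 with a probe) summed to 7608 in blood of animal 1 and to 16880, 48040 and 25860 in blood of animals 2, 3 and 4, and to 3597 to 17970 in endometrium. Dendritic cell markers (7 of 12 tested) summed to 24050 to 68500 in blood and 6827 to 23590 in endometrium, and no channel had CLEC9A, a defining marker of this list, well above background. The samples labeled CD14+ of animals 2 to 4 thus gave a low signal of CD14 and a high signal of T cell genes, against their label. By flow cytometry, which reads surface protein and not RNA, the paper found the sorted cells of both tissues to be of high purity. Every member tested is given below with and without animal 1. In bulk samples, fewer cells of a type and less RNA per cell cannot be told apart.

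**Figure D1:**
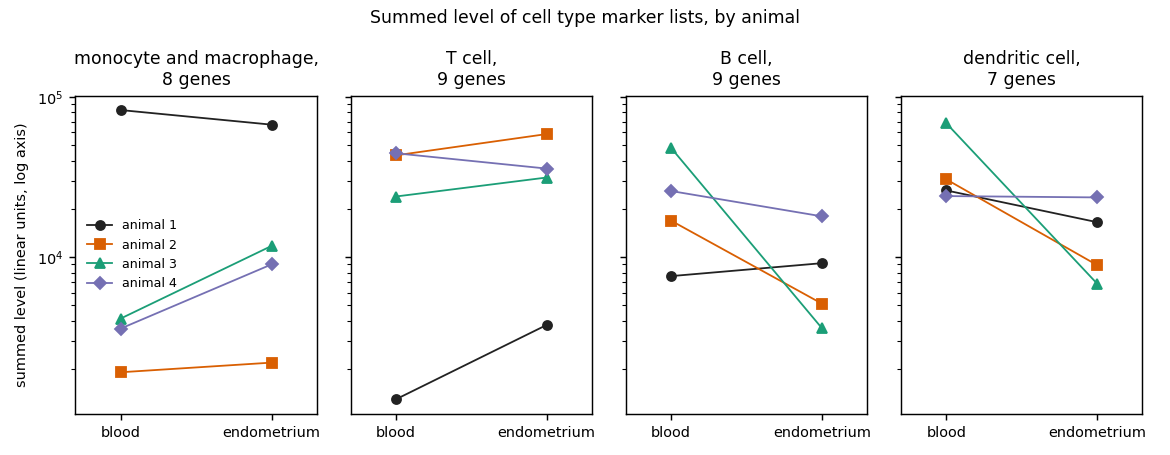
Summed level of 4 lists of cell type markers (y axis, linear units on a log axis) in blood and endometrium, with a line for each of the 4 animals. Animal 1 has the highest sum of monocyte and macrophage markers and the lowest sum of T cell markers in both tissues, and the B cell and dendritic cell sums of animals 2 and 3 are lower in endometrium than in blood.

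The other lists were used to see which further cells moved with the tissue. Trophoblast markers summed to 736.2 to 1441 in blood and to 12010 to 42390 in endometrium, and 4 of the 6 with a probe were called higher in endometrium, namely PRP1, CSH1, PAG7 and PAG4 with ratios of 4.22, 3.93, 3.84 and 3.17. With any 1 animal left out, 0 of them were called. Epithelial markers summed to 765.5 to 2482 in blood and 3221 to 44460 in endometrium, and stromal markers to 469.4 to 1414 and 519.3 to 72620. Natural killer cell markers summed to 2435 to 21530 and 15740 to 67350, granulocyte markers to 1040 to 68590 and 604.1 to 6959, and endothelial markers to 1216 to 1849 and 1418 to 4737. No gene of these lists besides the 4 trophoblast genes was called.

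None of the member probes was called. Of the 7 tested, 0 had an adjusted p of at most 0.05, where 0.0661% of all probes tested were called (11 of 16653, all higher in endometrium). The 7 mean ratios were all below 0, that is, toward blood, as were 52.5% of all ratios. Of these probes 2 are of CD28, and all share the same 8 samples. PDCD1LG2 passed the filter through blood alone (6 channels, against 1 of endometrium), so its sign is not independent of the filter. The median ratio of all probes tested was -0.02, and the middle of their distribution ran from -0.42 to 0.32 (quartiles). CD80 and CD40 passed an unadjusted p of 0.05 with a fold over 2, higher in blood, as did 5.11% of all probes. The members were lower in endometrium in 4 of 4 animals for CD80, CD40 and 1 CD28 probe, as were 14.7% of all probes. In animal 1 that CD28 probe was not well above background in either tissue (ratio -0.09). The CD40 ratio of animal 1 was -0.06, where technical replicates of CD40 differed by up to 0.17. The tissues did not overlap for CD80, as for 3.03% of all probes with blood above.

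**Figure D2:**
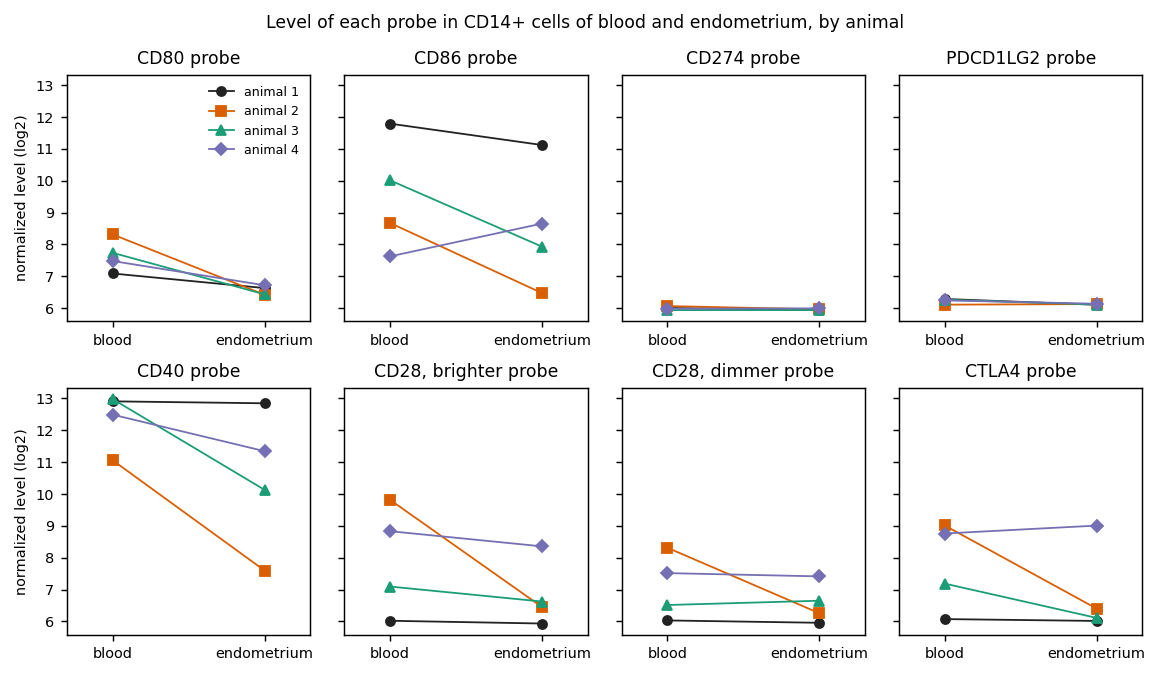
Normalized log2 level (y axis) of each of the 8 member probes in blood and endometrium, with a line for each of the 4 animals. CD80 is the probe whose 4 blood levels all lie above its 4 endometrial levels, CD28 and CTLA4 of animal 1 lie near 6 in both tissues, and CD274 lies near 6 in every sample.

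CD80, a B7 ligand for CD28 and CTLA4, was higher in blood in every animal. Its level in blood was 7.09, 8.31, 7.74 and 7.48 in animals 1 to 4, and in endometrium 6.63, 6.42, 6.43 and 6.72. The lowest blood sample stood above the highest endometrial sample. The means were 7.65 ± 0.51 in blood and 6.55 ± 0.15 in endometrium (SD, n = 4), a difference of 2.15-fold. The ratios of the animals were -0.46, -1.90, -1.30 and -0.76, with a mean of -1.10 (SE 0.31, adjusted p = 0.262 by limma). Without animal 1 the mean was -1.32 (adjusted p = 0.419). All 8 channels of both tissues had the probe well above background, and its 2 technical replicates differed by a median of 0.15, which is less than any of the 4 ratios. By the analysis of variance of the study's methods, with p unadjusted, CD80 passed, as did 4.13% of all probes. The paper reported CD80 among its differentially expressed genes, as upregulated in blood, whereas CD80 was not called here. In the authors' value table the ratio was -2.28, with means of 8.87 ± 0.80 in blood and 6.59 ± 0.36 in endometrium (SD, n = 4).

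CD86, the other B7 ligand, did not keep 1 direction. Its level in blood was 11.79, 8.68, 10.01 and 7.62 in animals 1 to 4, and in endometrium 11.12, 6.47, 7.93 and 8.66. Both tissues of animal 1 were above all other samples, and the tissues overlapped. It was lower in endometrium in animals 1, 2 and 3, with ratios of -0.67, -2.20 and -2.08, and higher in animal 4, with a ratio of 1.03. The mean ratio was -0.98 (SE 0.60, adjusted p = 0.472). It was -1.09 without animal 1 and -1.65 without animal 4, where the adjusted p was 0.234, and -0.58 and -0.62 without animals 2 and 3. The authors' value table gave -1.38 on average and the same sign in each animal.

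CD40, the receptor through which helper T cells license antigen-presenting cells, had the mean ratio farthest from 0 of the members in these values. In the authors' value table and with the processed signal of the scanner, those of CTLA4 and CD80 were farther. With the processed signal, that of the brighter CD28 probe was also slightly farther (-2.056 against -2.048 for CD40). In blood the level of CD40 was 12.91, 11.06, 12.98 and 12.49 in animals 1 to 4, and in endometrium 12.85, 7.59, 10.13 and 11.34. Animal 2 was the lowest in both tissues, animal 1 had almost the same level in both, and the tissues overlapped. The ratios were -0.06, -3.47, -2.85 and -1.15. The mean of -1.88 (SE 0.61) was 3.69-fold higher in blood, with an adjusted p of 0.278. It lay in the lowest 0.823% of all ratios. Without animal 1 the mean was -2.49 (adjusted p = 0.419). In the fit of all 8 arrays with a dye term and the animal as a random block, CD40 was called, with an adjusted p of 0.0484, where 4.76% of all probes were called. There the 2 arrays of an animal entered separately, with a consensus correlation of 0.986, and no animal was added. That fit gave no other member, and CD80 had an adjusted p of 0.0554 in it. The authors' value table gave a mean ratio of -2.07 for CD40.

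The ratios of CD80, CD86 and CD40 were largest below 0 in animals 2 and 3. In those animals the summed level of B cell markers had log2 ratios of -1.72 and -3.74, and that of dendritic cell markers had log2 ratios of -1.78 and -3.33. In animals 1 and 4 the log2 ratios of the sums were 0.27 and -0.53 for B cell markers and -0.66 and -0.03 for dendritic cell markers. In blood the brightest probes of the dendritic cell sum were CD83 and CCR7. Their ratios were -3.34 and -4.65 in animal 2 and -4.43 and -5.30 in animal 3. ITGAX, LAMP3 and FLT3 were above 0 in animal 2 (1.75, 0.33 and 0.30), and FSCN1 and ZBTB46 were below 0 (-0.81 and -0.09). In animal 3, FLT3 was at 0.02, and ZBTB46, LAMP3, FSCN1 and ITGAX were at -0.22, -0.44, -0.48 and -0.997. The lower sums in endometrium were thus not shared by every marker of the list. B cells and dendritic cells express CD40, CD80 and CD86, and the part of these cells in the ratios was not tested.

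The ligands of PDCD1 were dim. CD274 was not well above background in any of the 8 channels of either tissue, so that no ratio was tested, and its level had a mean of 5.998 ± 0.053 in blood and 5.958 ± 0.027 in endometrium (SD, n = 4). PDCD1LG2 was well above background in 6 channels of blood and 1 of endometrium. Its level was 6.29, 6.11, 6.26 and 6.24 in blood and 6.11, 6.13, 6.11 and 6.14 in endometrium of animals 1 to 4. Its samples all lay within a narrow range, and the mean ratio was -0.10 (SE 0.20, adjusted p = 0.844). It was -0.08 without animal 1. In the authors' value table PDCD1LG2 had a ratio of -1.13, and CD274 of -0.35. CD274 did not pass the filter for a test, and PDCD1LG2 was not called. In the authors' value table the ratios of PDCD1LG2 were -1.96, 0.24, -1.83 and -0.96 in animals 1 to 4.

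CD28, the activating receptor for CD80 and CD86 on T cells, was measured by 2 probes that followed each other over the 8 samples (r = 0.988, as a description over 4 animals with 2 tissues each). The brighter probe, A_73_116886, had a level of 6.02, 9.82, 7.10 and 8.83 in blood of animals 1 to 4 and of 5.94, 6.45, 6.63 and 8.36 in endometrium. Animal 1 was at the bottom of the scale in both tissues, and animals 2 and 4 were highest in blood. The ratios were -0.09, -3.37, -0.47 and -0.48, with a mean of -1.10 (SE 0.60, adjusted p = 0.428). The dimmer probe, A_73_110532, had ratios of -0.07, -2.06, 0.13 and -0.10 and a mean of -0.53 (SE 0.43, adjusted p = 0.586). Each probe was well above background in 6 of 8 channels of each tissue. The mean ratios rested on animal 2. Without it they were -0.35 and -0.01, and without animal 1 they were -1.44 and -0.68.

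CTLA4, the inhibitory receptor for the same ligands, had levels of 6.07, 9.01, 7.19 and 8.76 in blood of animals 1 to 4 and of 6.02, 6.40, 6.11 and 9.01 in endometrium. Animal 1 was again at the bottom of the scale in both tissues. Animal 4 was high in both tissues, and animals 2 and 3 were lower in endometrium. The ratios were -0.06, -2.61, -1.08 and 0.25, with a mean of -0.88 (SE 0.52, adjusted p = 0.459). Without animal 1 the mean was -1.15 and without animal 2 it was -0.30. The probe was well above background in 6 channels of blood and 4 of endometrium. The authors' value table gave mean ratios of -2.37 for CTLA4 and of -1.97 and -1.32 for the brighter and the dimmer CD28 probe.

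The animal in which CD28 and CTLA4 were lowest in both tissues, animal 1, was the animal with the lowest T cell marker sum, and the animals with CD28 and CTLA4 in blood were those with the high sums. Within animal 2, in which CD28 and CTLA4 had ratios of -3.37 and -2.61, the sum of T cell markers had a log2 ratio of 0.44, but single markers differed. There 5 of the 9 were above 0, with CD3E at 1.11 and CD3D at 0.03, and 4 were below 0, namely CD6 at -3.33, CD8B at -0.72, CD8A at -0.31 and CD5 at -0.08. The sum of T cell markers had log2 ratios of 1.54, 0.39 and -0.32 in animals 1, 3 and 4. The part of T cells in the levels of CD28 and CTLA4 was not tested.

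**Figure D3:**
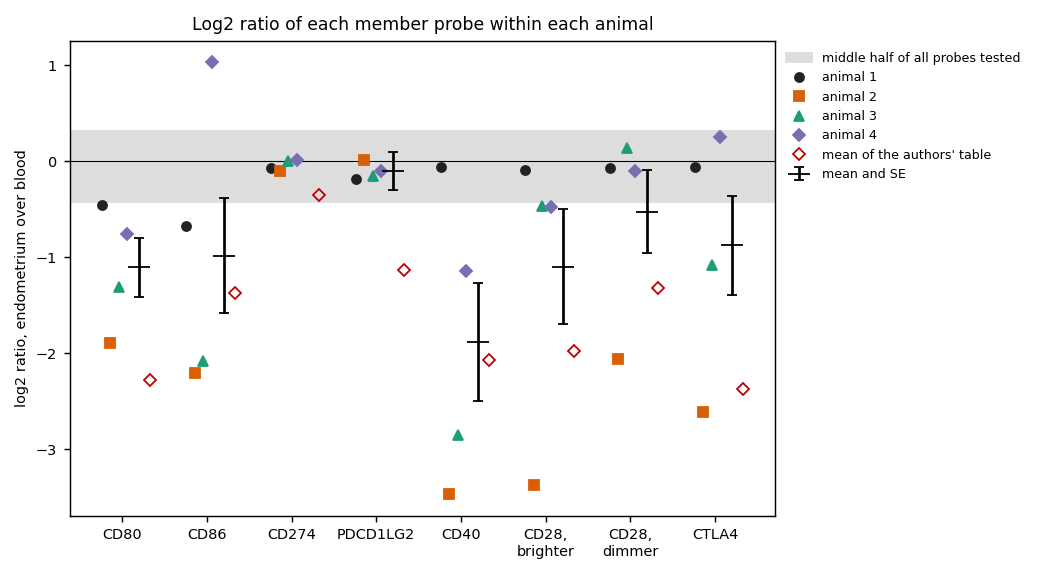
Log2 ratio of endometrium over blood (y axis) for each member probe. Filled symbols are the 4 animals, bars the mean and its SE by limma for the probes tested, open diamonds the mean of the authors' value table, and the gray band the quartiles of all probes tested. CD80 and CD40 are below 0 in every animal, CD86 and CTLA4 of animal 4 are above 0, and the ratio of both CD28 probes is farthest from 0 in animal 2.

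The authors' value table, made without the offset of 50 that was added to the intensities here, gave ratios farther from 0 for every member. For CD40 the mean ratio differed by less than the SE between the sources (-2.07 against -1.88), whereas for CTLA4 it was -2.37 against -0.88. With an offset of 16 in place of 50 the ratios were -1.51 for CD80 and -1.22 for CTLA4. No member was called with either set of values, and with the authors' values the adjusted p was 0.16 for CD80, 0.248 for CD40 and 0.272 for CTLA4, the lowest of the members.

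The genes that act with the members were followed in 6 lists with 60 genes, of which 49 had a probe and 47 were tested. None was called. Their ratios were above 0 for 20 genes and below 0 for 27, with a median of -0.10 beside -0.02 for all probes. At an unadjusted p of 0.05 and a fold over 2, 4 were higher in endometrium (5.28% of all probes) and 3 were higher in blood (5.11% of all probes).

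Of the other B7 and CD28 family, 7 of 11 genes had a probe, 6 were tested and the median ratio was -0.08. ICOS, the inducible T cell costimulator beside CTLA4, had ratios of 0.06, -3.75, -2.92 and 0.36 in animals 1 to 4, with a mean of -1.56 (adjusted p = 0.403). These were low in the animals in which CTLA4 was low, and near 0 in animal 1. BTLA, an inhibitory receptor, had a mean ratio of -0.47 (adjusted p = 0.588), and PDCD1, the receptor for CD274, had -0.11 (adjusted p = 0.892). CD276, a B7 homolog, was higher in endometrium in 3 animals and lower in animal 4, with a mean ratio of 1.44 (adjusted p = 0.374), and VSIR, another B7 relative, had 0.14 (adjusted p = 0.957).

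Of the TNF family costimulators, 8 of 12 genes had a probe and 7 were tested, with a median ratio of -0.07. TNFRSF9 (4-1BB), a receptor of activated T and natural killer cells, had ratios of 1.63, 2.80, 2.95 and 1.18, all above 0, and a mean of 2.14, or 4.41-fold, with an adjusted p of 0.242. CD40LG, the ligand of CD40, had a mean ratio of 0.21 (adjusted p = 0.833), with animals on either side of 0. A dimmer CD40LG probe had a mean of -0.515 (adjusted p = 0.393 by limma) and was lower in endometrium in 3 animals. TNFSF14 had -0.34 (adjusted p = 0.76) and CD27, a receptor of T and B cells, -0.26 (adjusted p = 0.83).

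Of the other inhibitory receptors and ligands, 10 of 13 had a probe and all 10 were tested, with a median of -0.07. CD96, a receptor of T and natural killer cells, was higher in endometrium in every animal, with ratios of 2.74, 3.20, 2.58 and 0.51 and a mean of 2.26 (adjusted p = 0.262). The summed level of natural killer cell markers had log2 ratios of 2.69, 2.00, 0.76 and 0.18 in animals 1 to 4. These were above 0 in each animal, as were the ratios of CD96, TNFRSF9 and CD2. Of the probes in that sum, those of NKG7, the brightest, KLRB1 and KLRK1 were above 0 in every animal. NCR1 was below 0 in each (-0.15, -0.22, -0.51 and -0.17), KLRD1 in animal 4 (-0.37) and PRF1 in animal 3 (-0.03). The part of natural killer cells in CD96, TNFRSF9 and CD2 was not tested. CD200, which restrains myeloid cells through CD200R1, was lower in endometrium in every animal, with a mean of -1.42 (adjusted p = 0.267). CD47, the signal against phagocytosis, had a mean of -0.70 (adjusted p = 0.278) and was below 0 in 4 of 4 animals. Its receptor SIRPA had a mean of 1.03 (adjusted p = 0.427), with ratios of -0.18, 0.25, 1.05 and 3.00 in animals 1 to 4.

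All 9 CD2 and SLAM family costimulators were tested, with a median ratio of 0.49. CD2, an adhesion receptor of T and natural killer cells, had 1.52 (adjusted p = 0.262) and SLAMF6 had 1.097 (adjusted p = 0.327), both above 0 in every animal. CD58, a ligand of CD2, had -0.98 (adjusted p = 0.328) and no overlap of the tissues, with blood above as for 3.03% of all probes, and CD48, a ligand of CD244, had -0.97 (adjusted p = 0.375), with 0.02 in animal 2.

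Among the 6 adaptors of CD40 signalling the median ratio was -0.44 and 5 were below 0. TRAF3, which binds the tail of CD40, had ratios of -2.49, -1.38, -2.42 and -0.74 and a mean of -1.76, or 3.38-fold higher in blood, with an adjusted p of 0.262. TRAF5 had -0.97 (adjusted p = 0.442), and TRAF1 had 0.04 (adjusted p = 0.991). Among the 9 mediators of CD28 and CTLA4 signalling the median was -0.15. GRB2, an adaptor that binds CD28, had a mean of -1.62 (adjusted p = 0.262), and the tissues did not overlap, as for 3.03% of all probes with blood above. The phosphatase PTPN6 had 1.28 (adjusted p = 0.377), with ratios of 0.78, 3.58, 0.38 and 0.40 in animals 1 to 4. VAV1 had 0.73 (adjusted p = 0.386).

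**Figure D4:**
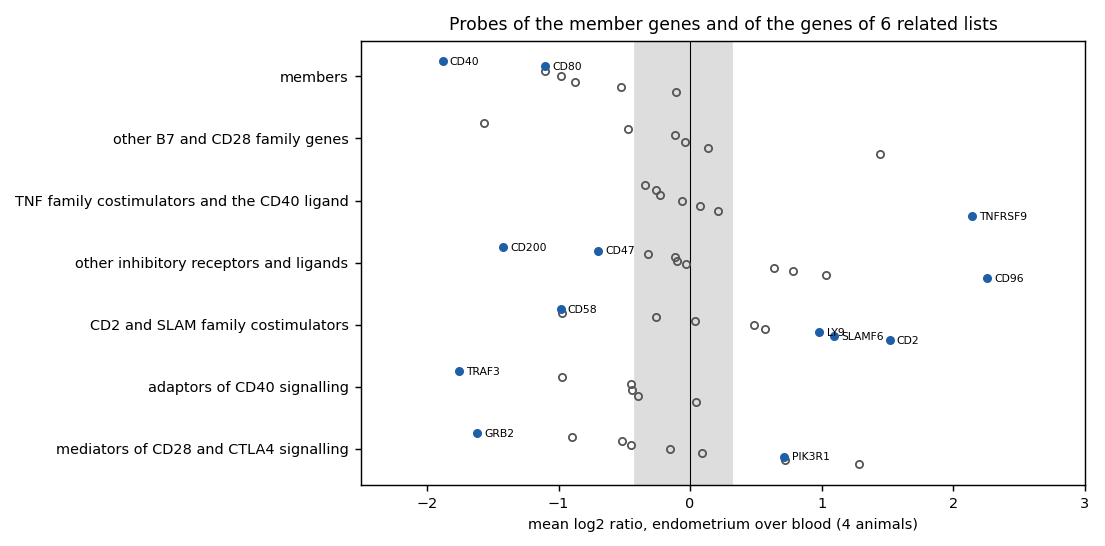
Mean log2 ratio of endometrium over blood in 4 animals (x axis) of the tested member probes and of the tested genes of 6 related lists (rows). Filled symbols have an unadjusted limma p of at most 0.05 and are named, open symbols do not, and the gray band gives the quartiles of all probes tested. All members are below 0, and the named genes lie on both sides.

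The probes whose level over the 8 samples was most like that of a member were found among 16652 others, as a description with points that share animals and arrays. For CD40 they were CLIC4 (r = 0.974) and CRY2 (r = 0.947). For CD80 they were CKMT2 (r = 0.967) and a probe without a gene name (r = 0.965). CD86 was followed most closely by a probe described in the files as similar to CYBB, but which the gene identifier assigns to PIP4K2A (r = 0.979), and by PDIA5 (r = 0.976). CTLA4 was most like a probe without a gene name (r = 0.986) and KIF22 (r = 0.983). Between the members themselves, r was 0.953 for CTLA4 and the brighter CD28 probe, 0.783 for CD40 and CD86 and 0.146 for CD80 and CD86.

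Other processing left the direction of the members in place in nearly every case. Over the alternatives, the ratio of CD40 ran from -2.49 to -1.35, apart from the reading of the scanner files as attached to the samples, in which it was 0.46. Under that reading the ratios of 6 of the 7 tested probes were above 0.

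**Figure D5:**
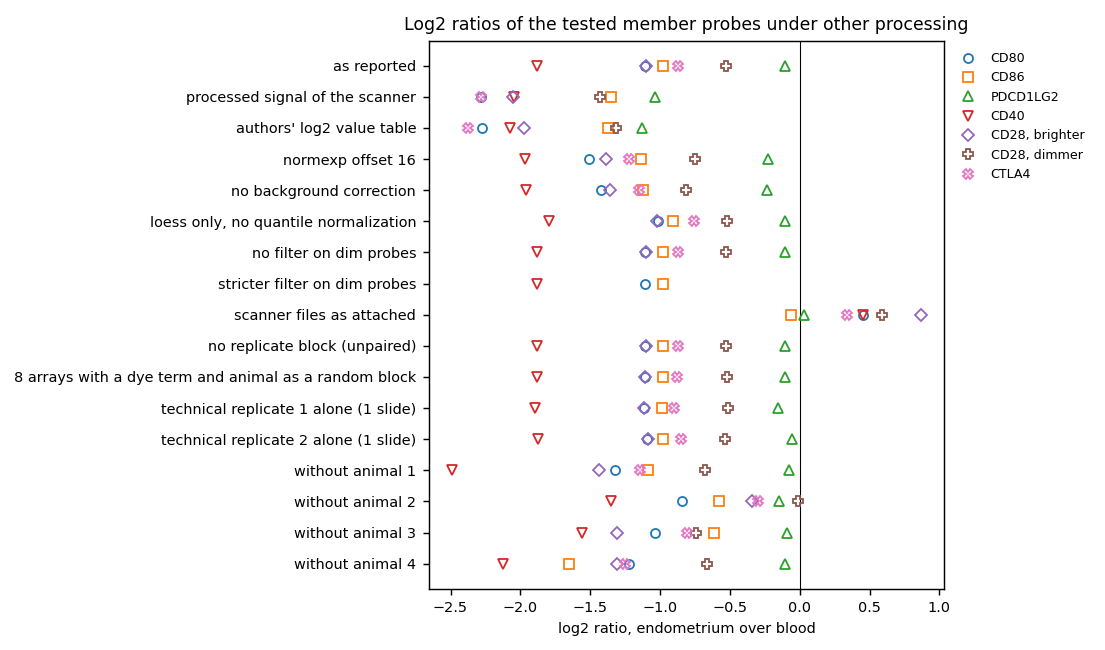
Mean log2 ratio of endometrium over blood (x axis) of the 7 tested member probes as reported and under each alternative (rows). The symbols lie at or below 0 in every row except that of the scanner files as attached, where 6 of the 7 lie above 0, and the stricter filter leaves CD80, CD86 and CD40.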

How the data were processed

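The authors amplified the RNA, hybridized it to Agilent bovine arrays and scanned them. The submitters' processing notes name Feature Extraction 9.5, and the file header gives version 10.5.1.1. The deposited scanner files hold the median intensity of each spot and of its background, without normalization, and a processed intensity. The authors' deposited table of values holds log2 values after lowess within arrays and quantile normalization. All 16 columns of this table were compared by rank with the scanner files. A column matched the file of its animal's other technical replicate, in its labeled dye, at 100% of the probes (within 0.001), and its own file at no more than 0.689%. The 2 files of an animal were therefore exchanged, which was decided once the values had been seen. In animal 3, whose dyes were not swapped, this reading changes no sign, and its ratios correlated with those of animals 1, 2 and 4 at r = 0.369, 0.449 and 0.359 over 16653 probes. With the files as attached these were -0.369, -0.449 and -0.359.

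Intensities were corrected with normexp (offset 50), then normalized within arrays (loess) and over the 16 channels (quantiles) in limma 3.58.1 (R 4.3.3, statmod 1.5.0, and the package data.table, version 1.17.8). Control spots and spots with outlier flags (3 to 20 per array) were dropped, and a probe's spots averaged. The mean ratio of the 2 arrays of an animal was tested against 0 over 4 animals with lmFit and eBayes, 2-sided, with Benjamini-Hochberg adjustment over all probes tested. The labels number the animals, which pairs the tissues. As a check, the 2 tissues of an animal, each relative to its tissue mean, correlated at r = 0.618, 0.364, 0.209 and 0.465 in animals 1 to 4.

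The members and lists were chosen with earlier results of these data known. All member probes are named. Of each related list the brightest probe stood for a gene, and up to 2 tested genes with the largest ratios in each direction are named. A result for 1 gene of these lists is not reported here. PDCD1, CD14, CSF1R and the T cell and dendritic cell markers given singly were picked after their values were seen. Names were updated from RefSeq (assembly ARS-UCD2.0), whose coordinates served only to order neighboring genes, because the array's build differs. PAG1 probes, which target another gene of that name, and a probe with conflicting names for TNFRSF4 were left out of the lists. The fit was tested on simulated data. The number of arrays limits precision. Alternatives changed the intensities, background, normalization, filter, file reading, pairing, dye and slide, animals and test.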

Additional observations from a re-analysis of the deposited data

Results flagged for a closer look

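In groups of 4 animals, 21 sets of member values were examined for a sample far from the others, and 3 held one, where chance gives about 1 in 20. The level of CTLA4 in endometrium of animal 4 was 9.01, and the nearest of the other animals was 6.40. The ratio of the brighter CD28 probe in animal 2 was -3.37, against a nearest value of -0.48. That of the dimmer CD28 probe in animal 2 was -2.06, against -0.10, so the flags on CD28 share 1 animal and the same arrays.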

How the results depend on the processing

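No member was called under the alternatives to the reported values except in 2 of them. With all 8 arrays, a dye term and the animal as a random block, 1 member (CD40, -1.88, adjusted p = 0.0484), 5 genes of the related lists, 15 markers and 792 of all probes were called. Technical replicates entered that fit separately, and it held no further animals. By the methods' analysis of variance with unadjusted p, 1 member (CD80), 3 genes of the related lists, 15 markers and 687 of all probes were called, and after adjustment 0 of all probes and 0 markers. Of all probes, 171 were called with the processed signal (14 markers), 224 with the authors' value table (16 markers), 66 with an offset of 16 (9 markers), 50 without background correction (9 markers), 5 with loess only, 5 without a filter, 44 with the stricter filter (8 markers), 20 with technical replicate 1 alone (7 markers) and 5 with technical replicate 2 alone. With no replicate block (unpaired), 4 of all probes were called instead of 11. Leaving out 1 animal at a time gave 0 members, 0 of all probes and 0 markers in each case. With the scanner files as attached, 0 of all probes and 0 markers were called, and the ratios were reversed to 0.46 for CD40, 0.45 for CD80, 0.34 for CTLA4, 0.03 for PDCD1LG2 and 0.87 and 0.59 for the brighter and dimmer CD28 probe. The median ratio of all probes was -0.14 in the authors' table and -0.13 with the processed signal, beside -0.02. The spread between 4 animals and the brightness of the CD274, PDCD1LG2, CD28 and CTLA4 probes over background limit what could be called.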
